A study of Mus musculus with 8 samples.

Results

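The PGC-1 coactivators and the mitochondrial transcription factors that work with them were followed in the soleus muscle of mice carrying the dynamin 2 K562E mutation. The 10 genes, Ppargc1a, Ppargc1b, Pprc1, Perm1, Esrra, Esrrg, Ppard, Nrf1, Gabpa and Tfam, were chosen by name, as the 10 of the 22880 gene IDs in the count files that carry these symbols. All 10 passed the filter on low counts. The soleus is a slow, postural calf muscle, and dynamin 2 is a GTPase that cuts membrane vesicles from their parent membranes.

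The controls were Dnm2 +/+ and the mutants Dnm2 +/K562E, written Dnm2 wt/K562E from here on, which have 1 wild-type and 1 K562E allele in every cell. Each genotype had 4 male mice of 2 months on a C57BL/6 background (C57bl/6 J in the study's methods), with 1 soleus library per mouse. The K562E allele was made by gene targeting and retains a LoxP site in intron 16-17 that the controls lack. Reads per gene were counted over whole muscle, so that fewer fibres and less RNA per fibre cannot be told apart, and reads of both Dnm2 alleles were summed.

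PGC-1α, encoded by Ppargc1a, binds no DNA itself. It is recruited by oestrogen-related receptors, PPARs and nuclear respiratory factors to the promoters of genes for respiration and fat oxidation, and its amount in muscle follows contractile activity. Nrf1 and Gabpa drive nuclear genes of the respiratory chain, and Tfam enters the organelle to package and transcribe mitochondrial DNA. Slow oxidative fibres, which make up much of the soleus, are known for high levels of this system.

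In Dnm2 wt/K562E mice Ppargc1a stood at 32.4% of its control level and Perm1 at 34.7%, while Esrra, Ppard, Nrf1 and Esrrg were lower by smaller amounts. Pprc1, Gabpa, Tfam and Ppargc1b did not pass the test. By the quasi-likelihood test of edgeR, with Benjamini-Hochberg adjusted p over 14001 genes, 6 of the 10 genes were lower in the mutants at an adjusted p under 0.05, where 21.7% of all tested genes were. None was higher, against 22.2% of all tested genes, and the same count of 0 came at an unadjusted p under 0.05, by the exact test of edgeR and by DESeq2. With a log2 fold change of at least 0.58 also required, 4 were lower (Ppargc1a, Perm1, Esrra and Ppard), against 7.85% of all tested genes lower and 12.9% higher. In 5 genes every mutant lay below every control, which held for 20.5% of all tested genes, and 9 of the 10 were lower in mean, which held for 49.3%. The log2 fold change had a median of -0.39 over the 10 genes and 0.01 over all tested genes.

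These differences are on the TMM scale of edgeR, which sets the bulk of genes to no change, and normalized CPM are counts divided by the library total times the TMM factor and written in CPM. Scaled by library size alone, the median of all genes moved to 0.22, and scaled by the summed counts of 13 structural genes of the myofibre it moved to 0.46. Of those 13 genes 11 were themselves lower in the mutants, Des (desmin) was higher and Dmd (dystrophin), at 0.18, did not pass the test. Both scalings move every gene upward, so that a negative difference smaller in size than the shift can turn positive. The split of all genes into 3036 lower and 3103 higher became 1504 and 5608 by library size, and 628 and 8698 by the myofibre genes, which are 4.49% and 62.1% of the genes tested. Ppargc1a, Perm1 and Esrra stayed lower past the threshold under each scaling tried. Values for the other genes under these scalings are given with each gene.

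Library totals lay between 33407430 and 48832814 counts per mouse, and the 10 genes had between 387 and 18105 counts in a mouse. TMM factors were 0.914 to 0.959 in controls and 1.04 to 1.10 in mutants. Dnm2, the mutated gene, was at 66.3 ± 4.74 normalized CPM in controls and 73.4 ± 2.43 in mutants (SD, n = 4 each), a log2 fold change of 0.15 ± 0.07 (SE) with an adjusted p of 0.0909, and total counts cannot show the genotype.

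**Figure D1:**
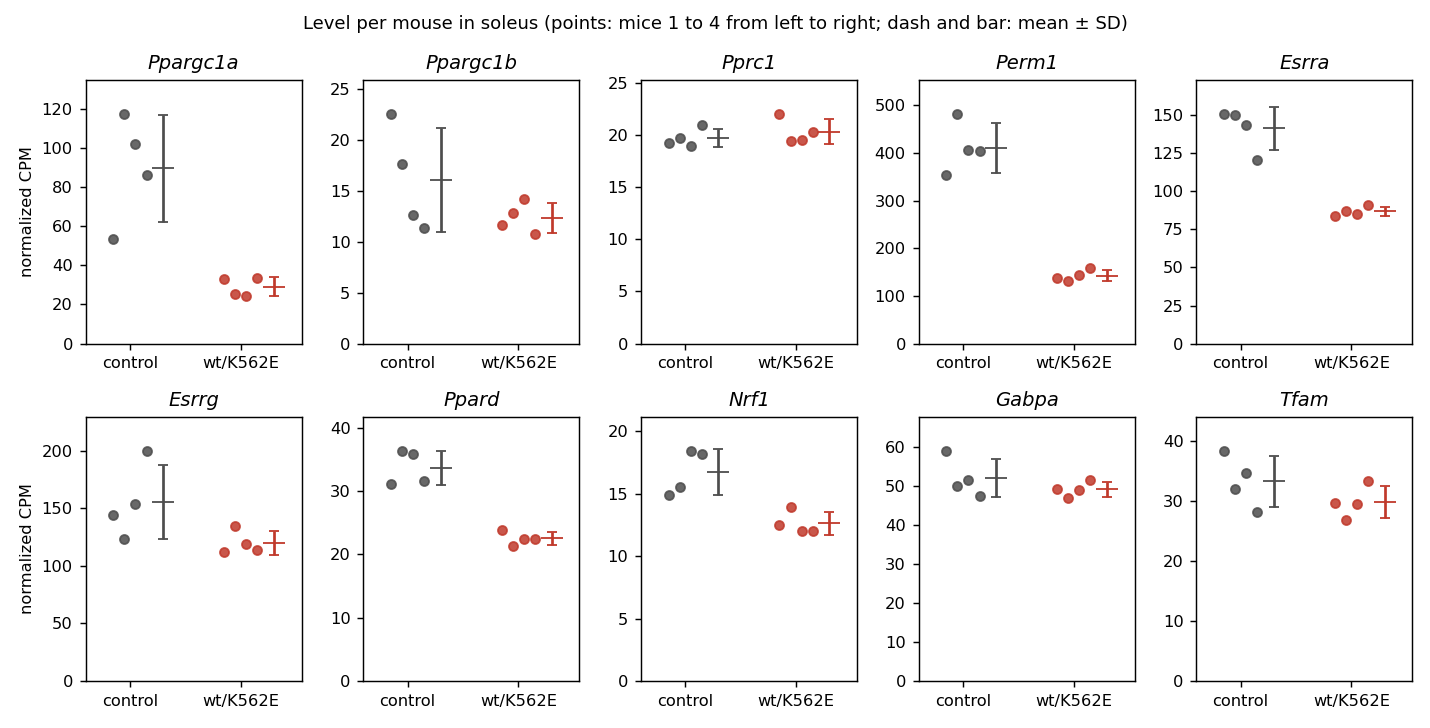
Normalized CPM of the 10 genes in each mouse, with the mean and SD of the 4 mice of each genotype beside the points (linear axes from 0). The mutant points lie below every control point for Ppargc1a, Perm1, Esrra, Ppard and Nrf1, and the genotypes overlap for the other 5 genes.

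The starts of 4 genes are shown to set Ppargc1a and Perm1, with the largest differences of the 10 genes, and Esrra, with the largest of the 3 receptors, beside Tfam, a downstream factor that did not pass the test. Each is the 250 bases before the RefSeq transcription start in GRCm38.p6, in the direction of the gene, and capitals mark a motif match. The windows are chr5:51567726-51567975 on the minus strand for Ppargc1a, chr4:156215677-156215926 on the plus strand for Perm1, chr19:6921809-6922058 on the minus strand for Esrra and chr10:71238045-71238294 on the minus strand for Tfam.
Ppargc1a: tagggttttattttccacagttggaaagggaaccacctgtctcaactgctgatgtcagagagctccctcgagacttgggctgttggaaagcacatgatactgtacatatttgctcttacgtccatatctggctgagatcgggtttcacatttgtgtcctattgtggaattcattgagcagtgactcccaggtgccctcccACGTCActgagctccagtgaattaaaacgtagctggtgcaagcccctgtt
Perm1: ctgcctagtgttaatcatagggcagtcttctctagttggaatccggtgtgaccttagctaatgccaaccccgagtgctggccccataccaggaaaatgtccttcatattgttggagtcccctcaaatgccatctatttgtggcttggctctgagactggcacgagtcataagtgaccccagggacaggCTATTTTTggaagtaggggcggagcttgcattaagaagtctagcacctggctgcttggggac
Esrra: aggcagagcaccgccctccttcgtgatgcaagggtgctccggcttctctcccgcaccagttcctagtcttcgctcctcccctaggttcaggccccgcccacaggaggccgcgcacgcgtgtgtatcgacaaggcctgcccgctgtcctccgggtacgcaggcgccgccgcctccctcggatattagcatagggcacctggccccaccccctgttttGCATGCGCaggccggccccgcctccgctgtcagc
Tfam: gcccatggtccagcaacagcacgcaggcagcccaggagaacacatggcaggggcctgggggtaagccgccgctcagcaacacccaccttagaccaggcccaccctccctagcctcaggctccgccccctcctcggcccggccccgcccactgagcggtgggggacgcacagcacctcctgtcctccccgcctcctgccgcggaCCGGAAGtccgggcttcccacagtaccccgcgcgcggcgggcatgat

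The motifs were picked after the windows had been read, so a match is only a description. Both strands of 32851 RefSeq windows of this length were searched. The Ppargc1a window held the cAMP response half-site ACGTCA, present in 6.47% of all windows, with its first base 50 bases before the start. In the Perm1 window stood a MEF2-like CTATTTTT, which 1.39% of windows held, 62 bases before the start. Esrra had the NRF1 core GCATGCGC, found in 2.26% of windows, 34 bases before its start. The Tfam window carried the Ets letters CCGGAAG, the kind bound by GABPA and present in 6.91% of windows, 47 bases before the start, and Gabpa had a match on the other strand. The extended half-site of oestrogen-related receptors, TNAAGGTCA, was in 1.14% of all windows and in none of the windows matched to 9 of the 10 genes (Ppargc1b had no entry). No match in these letters says nothing about binding elsewhere in a gene.

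Ppargc1a (ENSMUSG00000029167, chromosome 5, 51454250 to 51567726, minus strand, GRCm38) was lower in each mutant than in any control. The controls were at 53.2, 117.3, 101.8 and 86.0 normalized CPM and the mutants at 32.8, 25.2, 24.5 and 33.4. Control 1 was the lowest control by a wide margin, and still lay above mutant 4, the highest mutant. The means were 89.6 ± 27.4 and 29.0 ± 4.79 normalized CPM (SD, n = 4 each). The log2 fold change was -1.63 ± 0.21 (SE; 95% interval -2.09 to -1.16), with an adjusted p of 1.29e-04 in the edgeR quasi-likelihood test. The coefficient of variation was 30.6% among controls and 16.5% among mutants. Without control 1 the log2 fold change was -1.82. Per length, Ppargc1a fell from above 82.0% of tested genes in controls to above 57.5% in mutants.

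Perm1 encodes a muscle protein that works with PGC-1α and the oestrogen-related receptors and is itself induced by them. The single annotated transcript lies on chromosome 4, 156215868 to 156221307, plus strand. The 4 controls measured 354.4, 481.2, 405.5 and 403.0 normalized CPM, and the mutants 137.1, 130.5, 144.1 and 158.6. The genotypes were far apart, with no overlap. From means of 411 ± 52.4 and 142.6 ± 12.1, the log2 fold change was -1.53 ± 0.10, with an interval of -1.74 to -1.31 and an adjusted p of 1.34e-06 in the edgeR quasi-likelihood test. Ranked by p among all genes lower in the mutants, Perm1 came 37th. Perm1 was the most abundant of the 10 genes per length in both genotypes, at 105.4 and 36.5 normalized CPM per kilobase of exon.

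Ppargc1b encodes PGC-1β, the coactivator linked to basal rather than activity-driven oxidative capacity. Its values were 22.5, 17.6, 12.7 and 11.4 normalized CPM in controls and 11.7, 12.8, 14.2 and 10.7 in mutants. Controls 1 and 2 stood above every mutant, whereas controls 3 and 4 lay within the mutant range. The log2 fold change of -0.37 ± 0.19 (interval -0.80 to 0.05) did not pass the edgeR quasi-likelihood test (adjusted p = 0.139). Without control 1 it was -0.18 (adjusted p = 0.378), and without control 4 it was -0.51 and passed (adjusted p = 0.0359). By library size it was -0.16 (adjusted p = 0.513), and on the myofibre scale 0.07. Ppargc1b was highest in control 1, the mouse in which Ppargc1a was lowest among controls.

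Pprc1, whose product PRC is the growth-responsive member of the family, lay at 18.9 to 20.9 normalized CPM in the controls, and at 19.4 to 22.0 in the mutants. The genotypes overlapped, with a log2 fold change of 0.04 ± 0.07 (interval -0.12 to 0.20) and an adjusted p of 0.669 in the edgeR quasi-likelihood test. By library size alone Pprc1 was 0.25 higher in mutants (adjusted p = 0.0232), and against the myofibre genes 0.50 higher (adjusted p = 0.00202). A share of 2.82% of its exon bases lies opposite Ldb1, and whether the counting used strand is not stated.

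The makeup of the coactivator family differed between the genotypes. Summed over the 3 genes, the level per kilobase of exon was 20.7 ± 3.65 normalized CPM in controls and 10.7 ± 0.582 in mutants. Ppargc1a made up 48.1, 70.2, 71.4 and 67.8% of this sum in the controls and 43.7, 37.8, 35.8 and 46.2% in the mutants. The ranges did not overlap, although control 1 came close to mutant 4. The share of Pprc1, at an even level, was 15.5 ± 2.78% in controls and 30.1 ± 0.596% in mutants, and that of Ppargc1b 20.1 ± 9.09% and 29.0 ± 4.71%. Such shares compare genes within a mouse and do not depend on the scaling between libraries.

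**Figure D2:**
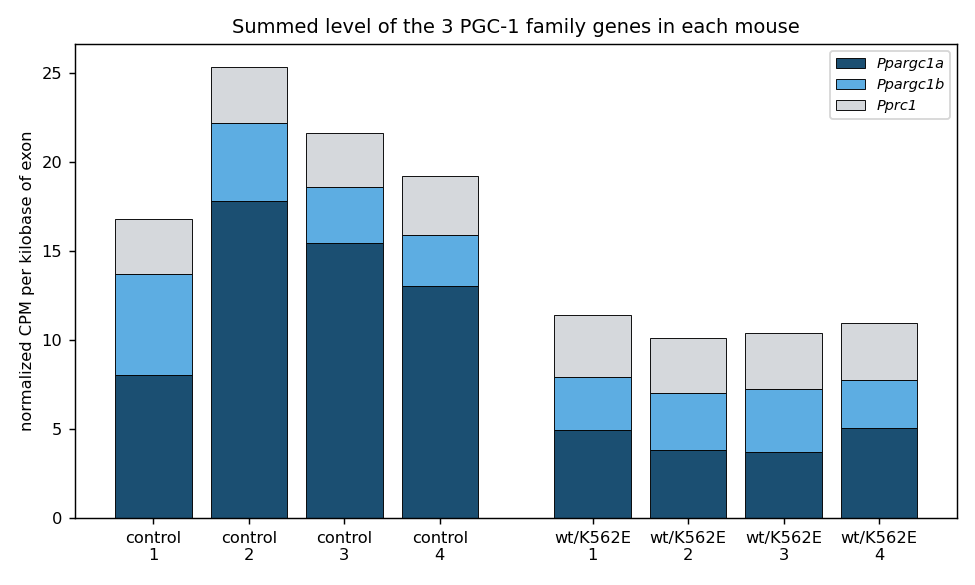
Stacked level of Ppargc1a, Ppargc1b and Pprc1 in each mouse, in normalized CPM per kilobase of exon (axis from 0). The summed level was 16.8 to 25.3 in the 4 controls and 10.1 to 11.4 in the 4 mutants, and the Ppargc1a part of each bar is the part that differs most between the genotypes.

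Esrra encodes ERRα, the orphan nuclear receptor through which PGC-1α reaches many genes of respiration, and PGC-1α and ERRα together raise Esrra itself. The controls were at 150.8, 150.5, 143.9 and 120.4 normalized CPM and the mutants at 83.7, 87.1, 85.5 and 91.2. Control 4 was the lowest control and lay clear of every mutant. The means of 141.4 ± 14.3 and 86.9 ± 3.22 gave a log2 fold change of -0.70 ± 0.08 (interval -0.87 to -0.53), with an adjusted p of 3.92e-05 in the edgeR quasi-likelihood test. The mutants thus stood at 61.4% of the controls. Against the myofibre genes the log2 fold change was -0.25 (adjusted p = 0.0240). A share of 1.66% of its exon bases lies opposite Trmt112.

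Esrrg, encoding ERRγ, a receptor of slow oxidative muscle, had a weaker difference. Its level was 144.5, 123.5, 154.1 and 199.6 normalized CPM in controls and 112.0, 134.5, 118.9 and 114.2 in mutants. Mutant 2 lay above control 2, so the genotypes overlapped. The log2 fold change of -0.37 ± 0.13 (interval -0.65 to -0.10) passed the edgeR quasi-likelihood test by a small margin (adjusted p = 0.0332). This call was lost without control 4, the highest mouse (-0.24, adjusted p = 0.0600), without control 3 (-0.38, adjusted p = 0.0578), and without mutant 1, 3 or 4 (adjusted p between 0.0693 and 0.0853). By library size the log2 fold change was -0.17 (adjusted p = 0.344), and on the myofibre scale it turned to 0.07.

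After the mean of each genotype was removed, the log2 levels of Esrra and Esrrg were correlated at r = -0.81 over the 8 mice, given as a description since genes of a mouse share its library. Control 4 had the lowest Esrra and the highest Esrrg of the controls. The ratio of Esrra to Esrrg per kilobase of exon was 0.854 to 1.72 in controls, against 0.916 to 1.13 in mutants, so that the mutant range lay within that of the controls.

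Ppard encodes PPARδ, a fatty acid sensor that turns on fat-burning genes in muscle. It was at 31.1, 36.2, 35.8 and 31.6 normalized CPM in controls and 23.8, 21.4, 22.5 and 22.3 in mutants. The genotypes did not overlap. Its log2 fold change of -0.58 ± 0.07 (interval -0.75 to -0.42, adjusted p = 1.09e-04 in the edgeR quasi-likelihood test) lay just past the 0.58 required. By library size it was -0.37 (adjusted p = 0.00192), and on the myofibre scale -0.12 (adjusted p = 0.271).

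Nrf1, the nuclear respiratory factor that binds the promoters of many respiratory genes, had a low level. Its coefficient of variation was 10.9% among controls and 7.07% among mutants. The controls were at 14.9, 15.5, 18.4 and 18.2 normalized CPM and the mutants at 12.5, 13.9, 12.02 and 12.05. The highest mutant lay just below the lowest control. The log2 fold change was -0.41 ± 0.10 (interval -0.62 to -0.20) with an adjusted p of 0.00567 in the edgeR quasi-likelihood test, and it did not reach 0.58. By library size it was -0.20 (adjusted p = 0.147), and on the myofibre scale 0.05.

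Gabpa, the DNA-binding subunit of the other nuclear respiratory factor, spanned 47.4 to 58.8 normalized CPM in the controls, and 46.9 to 51.6 in the mutants. Its log2 fold change was -0.08 ± 0.07 (interval -0.24 to 0.08, adjusted p = 0.407 in the edgeR quasi-likelihood test). Scaling turned it to 0.13 by library size (adjusted p = 0.132) and 0.37 on the myofibre genes. On the latter it passed as higher (adjusted p = 0.00566), as did 62.1% of all tested genes. It shares 6.98% of its exon bases with Atp5j on the other strand, a subunit gene of ATP synthase that was lower in the mutants (-0.61, adjusted p = 6.52e-05). The part of those reads in the Gabpa value was not tested.

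Tfam, which coats and transcribes mitochondrial DNA, was at 38.3, 32.1, 34.6 and 28.2 normalized CPM in controls and 29.7, 26.9, 29.5 and 33.3 in mutants. The genotypes overlapped broadly. The log2 fold change of -0.16 ± 0.10 had an interval of -0.38 to 0.06 and an adjusted p of 0.224 in the edgeR quasi-likelihood test. The lower end of that interval is close to the log2 fold change of Nrf1. Tfam turned to 0.05 by library size (adjusted p = 0.632) and to 0.30 on the myofibre genes. There it passed as higher (adjusted p = 0.0373), as did 62.1% of all tested genes.

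Per kilobase of exon, the order of the levels differed between the genotypes. In controls Perm1 was followed by Esrra, Esrrg, Ppargc1a, Gabpa, Tfam, Ppard, Ppargc1b, Pprc1 and Nrf1. The ranges of Esrra and Esrrg overlapped, as did those of Ppargc1a and Gabpa, of Ppargc1a and Tfam, and of Gabpa and Tfam. So did those of Ppard and Ppargc1b, and of Ppargc1b and Pprc1. In mutants Ppargc1a, at 4.40 ± 0.726 normalized CPM per kilobase against 13.6 ± 4.16 in controls, stood below Gabpa and Tfam without overlap. The means of Ppard, Ppargc1b and Pprc1, at 4.48, 4.02 and 3.14 normalized CPM per kilobase in controls, came close together in mutants, at 2.99, 3.09 and 3.23. Their ranges in mutants, 2.84 to 3.17, 2.69 to 3.56 and 3.08 to 3.50, all overlapped, so no order among them was set there.

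The 10 genes were also set against the fibres' own transcripts. Per 10000 counts on the 13 myofibre genes, Ppargc1a had 14.6 ± 4.21 counts in controls and 6.55 ± 1.45 in mutants, and Perm1 67.4 ± 8.18 and 32.0 ± 3.09. Neither overlapped between the genotypes. Esrra was at 23.2 ± 2.32 and 19.5 ± 1.21 on this measure, with overlap. Ppard (5.51 and 5.06) and Nrf1 (2.74 and 2.83) also overlapped. Pprc1 (3.24 and 4.57) and Gabpa (8.53 and 11.04) were higher in every mutant than in any control. Scaled by these 13 genes, 4.49% of all tested genes passed as lower and 62.1% as higher, with a median of 0.46. Pprc1 was at 0.50 and Gabpa at 0.37 on that scale. The share of all tested genes without overlap on this measure was not counted. Acta1, the skeletal actin gene, supplied 39.1% of the counts of this list and Ckm, muscle creatine kinase, 13.2%.

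**Figure D3:**
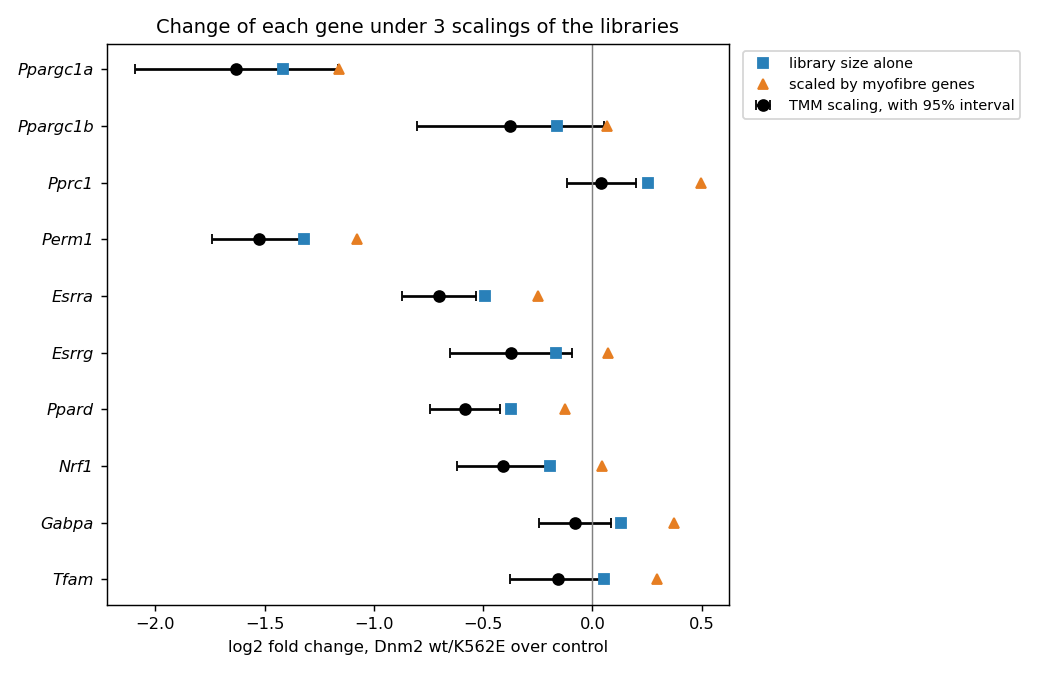
Log2 fold change, Dnm2 wt/K562E over control, of each of the 10 genes under 3 scalings of the libraries (circles, TMM with its 95% interval; squares, library size alone; triangles, summed counts of 13 myofibre genes). Ppargc1a, Perm1 and Esrra lie below 0 under all 3, while Ppargc1b, Esrrg, Nrf1, Gabpa and Tfam cross 0 on the myofibre genes.

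The other genes of the pathway were read from lists by function, to be set against the 21.7% lower and 22.2% higher of all tested genes, or 4.49% and 62.1% on the myofibre scale. Of 14 receptors and Ets partners with which the coactivators work, 8 passed as lower and 1 as higher, the list's median being -0.30. On the myofibre scale this split became 2 lower and 6 higher. Ppara, the PPAR of fat oxidation, was at 33.3, 56.1, 44.7 and 30.0 normalized CPM in controls and 11.8, 10.4, 9.02 and 10.5 in mutants, a log2 fold change of -1.98 ± 0.18 (adjusted p = 1.31e-05). Its difference was larger in size than that of Ppard, and no mutant came near the lowest control. Ppara and Rxrg were lower past the threshold under all 3 of the other scalings. Rxrg, the retinoid receptor partner enriched in muscle, fell by 1.31 on the log2 scale (adjusted p = 2.80e-05), whereas Rxra and Rxrb fell by 0.41 and 0.47 but were at 0.04 and -0.02 on the myofibre scale. Mef2c, which drives Ppargc1a in muscle, rose by 0.33 (adjusted p = 0.0174). Mef2d and Mef2a of the same family went the other way, at -0.29 and -0.16 (adjusted p = 0.00229 and 0.0476). On the myofibre scale Mef2c, Mef2d and Mef2a were at 0.78, 0.16 and 0.30. Gabpb1 and Gabpb2, the partners that carry the activation domain for GABPA, were at -0.11 and -0.02 and did not pass the test.

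Among 7 tested corepressors and inhibitors of PGC-1 action, Ncor1 alone was lower past the threshold (-0.24, adjusted p = 0.00216, turning to 0.21 on the myofibre scale), and none was higher. Nrip1, which encodes the corepressor RIP140, was at -0.15 (adjusted p = 0.270). The median was -0.15.

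Upstream of PGC-1α, 8 of 20 tested kinases, phosphatases and modifiers were lower and 3 were higher, and on the myofibre scale 2 and 12. The catalytic subunits of AMPK, the energy-sensing kinase that phosphorylates PGC-1α, moved in opposite directions. Prkaa2, the α2 subunit of muscle fibres, measured 161.6, 181.1, 176.3 and 182.8 normalized CPM in controls and 101.5, 102.7, 95.8 and 103.9 in mutants (log2 fold change -0.80 ± 0.06, adjusted p = 3.09e-06). Prkaa1, the widely expressed α1 subunit, measured 28.0, 26.8, 24.1 and 28.7 in controls and 44.7, 41.6, 46.5 and 43.3 in mutants (0.71 ± 0.07, adjusted p = 2.34e-05). Neither gene overlapped between the genotypes, and both kept direction and call when scaled by library size (-0.59 and 0.92) or by the myofibre genes (-0.34 and 1.16). Map2k6, an activator of p38 kinase, fell by 1.05 (adjusted p = 0.00291) and Mapk14, encoding p38α, by 0.28, the latter turning to 0.16 on the myofibre scale. Of the calcineurin genes, Ppp3cb fell by 0.40, with 0.05 on that scale. Ppp3ca was at -0.04 and did not pass the test (adjusted p = 0.629), with 0.41 on that scale. Camk2a fell by 0.41, with 0.04 on that scale, while Sirt1, the deacetylase, was at -0.24 and did not pass the test (adjusted p = 0.138).

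Textbook targets of ERR and PGC-1α in muscle were lower almost throughout. Of 14, 13 were lower, none was higher, and 12 were lower past the fold change, with a median of -0.80. On the myofibre scale 9 were lower and none was higher. Acadm, the medium-chain acyl-CoA dehydrogenase of fat oxidation and a classical ERRα target, was at 553.4 ± 53.7 normalized CPM in controls and 258.5 ± 4.43 in mutants, a log2 fold change of -1.10 ± 0.07 (adjusted p = 1.72e-06). Vegfa, the vessel growth factor that PGC-1α induces through ERRα, fell by 1.37 (adjusted p = 1.27e-05). Fndc5, the irisin precursor, fell by 1.08 and Idh3a, of the citric acid cycle, by 0.85. Ldhb (-1.07) and Cpt1b (-0.94) share 33.02% and 79.7% of their 31-base stretches with other genes, so their values are less certain. Ucp3, at -0.29, did not pass the test (adjusted p = 0.540).

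The PPARδ targets were mixed, with 7 of 11 lower and 1 higher and a median of -0.44, or 2 lower and 3 higher on the myofibre scale. Lpl, the lipase that takes up fatty acids from blood fats, had means of 2035 ± 169 and 792.9 ± 69.5 normalized CPM in controls and mutants (-1.36 ± 0.08, adjusted p = 1.29e-06). Cpt1a, of mitochondrial fat import, was higher (0.55, adjusted p = 0.00925). Pdk4 and Angptl4, which respond to fasting, were at 0.18 and -0.38 with adjusted p of 0.593 and 0.400.

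Of 11 textbook targets of NRF1 and GABPA, 9 were lower and none was higher, with a median of -0.53, and on the myofibre scale 3 were lower and 3 higher. Alas1, the first enzyme of haem synthesis, was at 135.7 ± 4.04 normalized CPM in controls and 93.8 ± 2.77 in mutants (-0.53 ± 0.05, adjusted p = 2.02e-05). Sdhd of complex II fell by 0.77 and the channel gene Vdac1 by 0.68. Surf1 and Cox17, at 0.12 and 0.06, did not pass the test. Both passed as higher by library size (0.33 and 0.27) and on the myofibre scale (0.57 and 0.51). On the myofibre scale Sdhd (-0.32) and Vdac1 (-0.24) stayed lower past the threshold, and Alas1 (-0.08) did not pass.

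The machinery of mitochondrial DNA, of which Tfam is a part, had 10 of 18 genes lower and none higher, with a median of -0.30. By library size 1 of the 18 was lower, and on the myofibre scale 1 was lower and 4 were higher. Lrpprc, which stabilizes mitochondrial messenger RNA, fell by 0.73 (adjusted p = 6.21e-06) from a control mean of 119.0 ± 5.84 normalized CPM. The mitochondrial RNA polymerase gene Polrmt fell by 0.33 (adjusted p = 0.00388) and the elongation factor gene Tefm by 0.43, both turning (0.13 and 0.01) on the myofibre scale. The helicase gene Twnk and the methyltransferase gene Tfb1m were both at -0.11, without passing the test. Where a list above had none higher, the count was also 0 at an unadjusted p under 0.05, by the exact test of edgeR and by DESeq2.

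**Figure D4:**
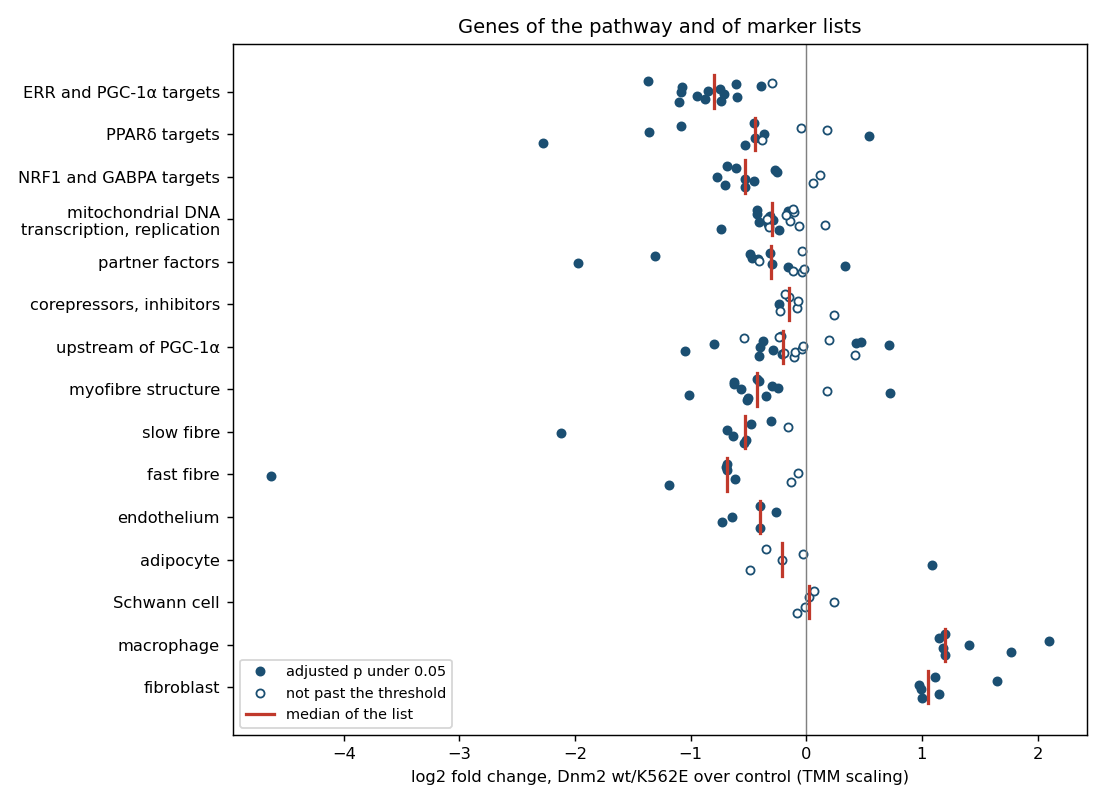
Log2 fold change, Dnm2 wt/K562E over control on the TMM scale, of each tested gene of the pathway lists and the marker lists (filled points, adjusted p under 0.05; open points, not past it; red bar, list median). The ERR and PGC-1α targets have a median of -0.80, and the macrophage and fibroblast lists medians of 1.20 and 1.06.

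Markers of the cells in the muscle moved with genotype beside these results. The 8 slow fibre markers were abundant in every mouse, with a summed level of 22360 to 26377 normalized CPM in controls and 13661 to 17000 in mutants, with 7 of 8 lower. Fast fibre markers were at 41818 to 43262 and 25583 to 30525, with 6 of 8 lower, and so summed above the slow markers in every mouse. These sums cover different genes and do not rank the fibre types. On the myofibre scale Myl3 (-1.68) and Tnnc1 (-0.23) alone of the slow markers stayed lower past the threshold, and Tnni1 (0.30) was higher. Of the fast markers Myh4 (-4.22), Atp2a1 (-0.74), Tnni2 (-0.24), Tnnt3 (-0.24) and Tnnc2 (-0.23) stayed lower past it there. Myh1 (0.33) and Mylpf (0.38) were higher past it, and Myh2 (-0.17) did not pass. All 7 macrophage markers were higher, summing to 72.8 to 135.5 in controls and 179.3 to 295.6 in mutants, and so were all 6 fibroblast markers, at 1880 to 2832 and 4013 to 5178. All 5 endothelial markers were lower on the TMM scale (1036 to 1118 and 717.6 to 821.2). By library size Pecam1 (-0.05) and Tek (-0.19) did not pass the test. On the myofibre scale Flt1 alone stayed lower past the threshold (-0.27). There Pecam1 was higher past it (0.19), and Cdh5 (0.05), Kdr (-0.19) and Tek (0.04) did not pass. Of 5 tested adipocyte markers Cidea alone was higher, Ucp1 had no count in any mouse, and none of 5 Schwann cell markers passed the edgeR quasi-likelihood, exact or DESeq2 test (1 was higher at an unadjusted p under 0.05). The part of this shift in cell makeup in the values of the 10 genes was not tested. On the counts per myofibre transcript Ppargc1a and Perm1 were lower in every mutant than in any control. Pprc1 and Gabpa were higher in every mutant, and Esrra, Ppard, Nrf1, Esrrg, Ppargc1b and Tfam overlapped. The share of all tested genes without overlap on this measure was not counted. Scaled by the same 13 genes, 4.49% of all tested genes passed as lower and 62.1% as higher, with a median of 0.46. Pprc1, at 0.50, and Gabpa, at 0.37, lay close to that median. Of the 13 myofibre genes in that measure, 11 were themselves lower in the mutants.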

How the data were processed

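RNA-seq counts of whole soleus muscle from 4 control and 4 Dnm2 wt/K562E mice were used. The authors used Trimmomatic 0.33 for trimming, STAR 2.5.1b for alignment to GRCm38.p5 and featureCounts for the counts per Ensembl gene, which were deposited raw, 1 file per mouse. Reads over more than 1 gene entered the counts of each such gene, and of a multi-mapping read only the primary alignment was used. The strand setting is not given in the sources used here. The labels name a stranded total RNA kit, whereas the study's methods describe poly A-enriched libraries.

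Genes were matched by Ensembl ID to GENCODE M21 (22647 of 22880), which gave symbols, positions and exon lengths on the same build, and promoter windows came from RefSeq (GRCm38.p6). In R 4.3.3, edgeR 4.0.16 was used with filterByExpr (minimum count 10, minimum total 15), TMM factors and the quasi-likelihood F-test for genotype, with Benjamini-Hochberg adjustment over 14001 genes. The standard error is that implied by the F statistic, and intervals are 95%. A level per length is normalized CPM divided by kilobases of exon. Genes were called at an adjusted p under 0.05, and separately with a log2 fold change of at least 0.58. Fitting was tested on simulated data. The mice are separate animals, and p-values measure the spread between these mice only.

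The text names the 10 genes, Dnm2, genes of the pathway and marker lists with their values, and the 5 genes most correlated with Ppargc1a within genotypes. Atp5j, Ldb1 and Trmt112 are named for their exon overlap. The 10 genes and the lists were chosen with earlier results of these data known. Motifs, and the scaling that weights each myofibre gene alike, were chosen after seeing the data. Results were recomputed with DESeq2 1.42.0, with edgeR's exact test, with library sizes alone, with median-ratio factors, scaling by myofibre genes, no filter, at least 10 counts in every mouse, leaving out mitochondrially encoded genes, GC and length offsets (mgcv 1.9.3), replicate blocks by title and by description numbers, and leaving out each mouse in turn. One gene of the upstream list and 1 of the PPARδ targets are not reported here.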

Additional observations from a re-analysis of the deposited data

Results flagged for a closer look

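Dnm2 in control 3 was at 59.2 normalized CPM, below the other controls by a gap of 0.965 of the group's whole range, past Dixon's limit for 4 mice. It was 1 of 22 groups tested (the 10 genes, Dnm2, each in both genotypes), and about 1 in 20 groups passes that limit by chance.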

How the results depend on the processing

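Each of the 10 genes was refitted under 20 alternatives. Ppargc1a, Perm1 and Esrra kept direction and call under all 20, with log2 fold changes of -1.82 to -1.16, -1.60 to -1.07 and -0.78 to -0.25 and adjusted p of at most 0.00219, 8.79e-05 and 0.0240. Scaling moved the others. On the myofibre genes Ppargc1b turned to 0.0671, Esrrg to 0.0718, Nrf1 to 0.0458, Gabpa to 0.37 and Tfam to 0.30. By library size alone Gabpa turned to 0.13 and Tfam to 0.0544, and with each myofibre gene weighted alike, a scaling chosen after seeing the data, to 0.28 and 0.21. The members lower at an adjusted p under 0.05, 6 in the report, were 4 by library size alone, 3 under both myofibre scalings and 5 to 6 when a mouse was left out. With the fold change also required, 4 became 2 under library size and both myofibre scalings, and 3 to 4 without a mouse. Members higher were 1 (Pprc1) under library size, 3 (Pprc1, Gabpa and Tfam) under the myofibre sum and 2 (Pprc1 and Gabpa) under equal weights. Of all tested genes 40.1%, 62.1% and 53.3% were higher under library size, the myofibre sum and equal weights. Dnm2 was higher by 0.36, 0.60 and 0.51 under these, with adjusted p of 0.00271, 2.58e-04 and 6.66e-04, and by 0.09 to 0.17 without a mouse. With equal weights, 867 genes of all tested were lower and 7465 higher, and the median of all genes was 0.37. With the fold change, 1099 lower and 1806 higher became 564 and 2865 by library size, 279 and 5026 on the myofibre sum, and 360 and 4024 with equal weights. These scalings shift all genes alike by construction. The 5 non-overlapping members were 4 to 6 without a mouse. With all mice, 20.5% of all tested genes were lower without overlap, and that share without a mouse is not given here.

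The replicate numbers do not pair the mice, which are separate animals and whose deviations correlated at -0.11 on average by title numbers and -0.03 by description numbers. With the replicate block by title numbers 5 of the 10 genes were lower, Esrrg being lost (-0.36, adjusted p = 0.0750), and by description numbers 6. The lowest count of a member in a mouse was 387.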

Other observations

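The genes whose levels most resembled those of Ppargc1a within the genotypes were Ip6k3, Eln, Acvrl1, Tmem205 and Elovl5, with r between 0.986 and 0.993 over the 8 mice after the mean of each genotype was removed, the highest among 8472 genes compared. These are descriptions over mice whose genes share a library, with no test. Without control 1 and control 2, the mice farthest from the median, r lay between 0.945 and 0.988 over the 6 left. Eln, encoding elastin, had 40.0, 92.9, 86.3 and 75.2 normalized CPM in controls and 65.3, 50.4, 46.0 and 66.3 in mutants, and so had its lowest control in the same mouse as Ppargc1a. Acvrl1, a receptor of endothelial cells, ran from 32.2 in control 1 to 50.3 in control 2. Tmem205 went the other way from Ppargc1a between genotypes, being higher by 0.47 on the log2 scale in mutants (adjusted p = 0.00460, edgeR quasi-likelihood test), although its values within each genotype followed those of Ppargc1a.

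Within genotypes, Ppargc1a was correlated with Perm1 at r = 0.80 and with Ppard at r = 0.80 over the 8 mice, and with Esrra at r = -0.03. No mouse was at the same end for all 10 genes. Mutant 4 had the highest mutant value for 5 of the 10 genes and mutant 2 the lowest for 5, while control 1 was the highest control for 4 and the lowest for 4.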
